A study of Mus musculus with 5 samples.

Results

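Plasma cell-like cells were taken from single-cell RNA sequencing of mouse spleen as the cells with at least 10 unique molecular identifiers (UMIs, 1 per captured transcript) of Jchain, at least 3 of Xbp1 and at least 3 of Mzb1. They also had no UMI of Siglech, a gene of plasmacytoid dendritic cells (pDCs), and at most 1 UMI in all of Cd3d, Cd3e and Cd3g, which encode the T cell receptor complex. These limits were applied to barcodes that held 1000 or more UMIs and 500 or more genes, with mitochondrial UMIs no higher than 10%, and 81 of 16271 such barcodes met them. All animals were C57/BL6 mice, and their spleens were taken 48 h after an intravenous infusion. There were 5 libraries, 1 for each infusion: live allogeneic splenic cells (from Balbc mice), live isogeneic splenic cells (from B6 mice), apoptotic allogeneic splenic cells (Balbc), apoptotic isogeneic splenic cells (B6) and saline. Each suspension was enriched for CD45+ cells and, apart from that, for dendritic cells by magnetic sorting, and both fractions were mixed in equal parts, so that shares of cells are not shares of the spleen. The number of mice behind a library and their age are not given in the sources used here, and whether a cell came from the infused cells or the recipient was not tested. With 1 library per infusion there is no replicate, so no test was made between infusions. Intervals are 95% intervals that cover counting error only.

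Plasma cells are the end stage of the B cell lineage and release antibody in bulk. Their endoplasmic reticulum (ER) is enlarged, and its translocon, chaperones, glycosylation enzymes and quality control handle the antibody chains. XBP1 is a transcription factor of the unfolded protein response that drives this enlargement. The J chain, encoded by Jchain, joins IgM and IgA into polymers, and MZB1 is an ER protein that assists antibody folding and secretion. In the spleen, IgM-secreting cells arise mainly outside germinal centres, while IgG- and IgA-secreting cells have undergone class switching.

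The live allogeneic library held 7 plasma cell-like cells, the live isogeneic library 20, the apoptotic allogeneic library 14, the apoptotic isogeneic library 29 and the saline library 11. As a share of the filtered cells this came to 0.590% (exact Clopper-Pearson interval 0.238% to 1.21%) of 1186 cells after live allogeneic infusion. The share was 0.543% (0.332% to 0.837%) of 3685 cells after live isogeneic infusion and 0.661% (0.362% to 1.11%) of 2118 cells after apoptotic allogeneic infusion. It was 0.455% (0.305% to 0.652%) of 6380 cells after apoptotic isogeneic infusion and 0.379% (0.189% to 0.677%) of 2902 cells after saline. All 5 intervals overlapped. B-like cells had at least 1 UMI of Ms4a1, at least 2 of Cd79a, fewer than 10 of Jchain and none of Cd3. Set against 1000 B-like cells of the same library, the counts were 14.1 (live allogeneic), 15.1 (live isogeneic), 20.6 (apoptotic allogeneic), 9.79 (apoptotic isogeneic) and 11.1 (saline).

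The libraries held between 12742889 UMIs (live allogeneic) and 32641733 UMIs (live isogeneic) in all. Plasma cell-like cells were deep cells: their median was 25121 UMIs in the live allogeneic library, 17416.5 in the live isogeneic, 15485.5 in the apoptotic allogeneic, 10698 in the apoptotic isogeneic and 17730 in the saline library, against medians of 2298 to 4984.5 UMIs over all filtered cells of a library. Median mitochondrial shares lay between 1.66% and 1.98% in the 5 libraries. No pair of libraries shared a plasma cell-like barcode, and 0 to 8 filtered barcodes were shared per pair. The live isogeneic library stood apart by Gm42418, a transcript that overlaps ribosomal RNA, at 112172 CPM (the count scaled to a fixed total of non-immunoglobulin UMIs) in plasma cell-like cells, against 14835 to 35939 CPM in the other 4 libraries. Scrublet, which scores simulated doublets, marked none of the 81 cells but under 0.5% of cells in each library except the apoptotic isogeneic one (1.83%), so that doublets were not removed reliably.

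The threshold on Jchain cut a nearly empty range. The lowest, median and highest Jchain counts per cell were 947, 1202 and 1986 UMIs (live allogeneic), 96, 619.5 and 1053 (live isogeneic), 222, 692 and 1040 (apoptotic allogeneic), 20, 484 and 1394 (apoptotic isogeneic) and 152, 621 and 913 (saline). Only 3 filtered cells had 5 to 9 Jchain UMIs, 2 in the live isogeneic and 1 in the saline library, and none of them met the limits on the other genes. Another 13 cells had at least 10 Jchain UMIs but missed a further limit. Several of these differed from the members by a single gene, such as a live isogeneic cell with 670 Jchain UMIs, 1 Mzb1 UMI and 63.1% immunoglobulin UMIs, and a saline cell with 881 Jchain UMIs and 3 Cd3 UMIs. At the other end, 3 cells with 10 or 11 Jchain UMIs had 8 to 12 UMIs of the B cell gene Ms4a1 and 0.477% to 2.04% immunoglobulin.

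The label was checked on 10 plasma cell markers that the rule did not use. All 10 were at least 2-fold higher in plasma cell-like than in B-like cells in each of the 5 libraries, where 3.3% of 10975 genes tested were. Sdc1 encodes CD138, the surface proteoglycan by which plasma cells are sorted. It averaged 203 (live allogeneic), 365 (live isogeneic), 273 (apoptotic allogeneic), 232 (apoptotic isogeneic) and 285 CPM (saline) in plasma cell-like cells, against 1.56 to 7.35 CPM in B-like cells. A UMI of it was found in 61 of the 81 cells, with at most 7 in a cell. Its median level in T-like cells (at least 3 UMIs of Cd3, fewer than 10 of Jchain, none of Cd79a or Ms4a1) was 0 CPM. Tnfrsf17, the survival receptor BCMA, lay between 225 (saline) and 785 CPM (apoptotic allogeneic) in plasma cell-like cells and between 0 and 0.184 CPM in B-like cells. Derl3, an ER degradation gene, lay between 402 and 736 CPM in plasma cell-like cells and between 2.94 and 5.49 CPM in B-like cells, and Fkbp11, an ER prolyl isomerase, between 360 and 956 CPM and between 3.5 and 12.4 CPM. Since the cells were chosen on expression, these values describe them and test nothing.

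A single cell went against the label. Cell 12 of the apoptotic isogeneic library met every limit with 20 Jchain, 3 Xbp1 and 13 Mzb1 UMIs, but immunoglobulin made up 1.39% of its 22455 UMIs. It had no UMI of Sdc1, Irf4, Prdm1, Tnfrsf17 or Derl3, while it had 22 UMIs of Ms4a1, 5 of the B cell factor Pax5, 25 of H2-Aa and 30 of the proliferation gene Mki67. Where it held much of a result below, this is said there. Cell 12 of the apoptotic allogeneic library held 37 UMIs of the macrophage genes C1qa, C1qb, Vcam1 and Csf1r beside 369 Jchain UMIs and 26.5% immunoglobulin, and had no UMI of Sdc1, Irf4, Prdm1 or Tnfrsf17. In the other cells the summed markers of T cells, NK cells, conventional dendritic cells and neutrophils were at most 1 UMI per cell each, those of erythroid cells at most 8, and those of monocytes and macrophages other than Ly6c2 at most 1. The pDC marker list summed to 0 to 20 UMIs per cell, with Siglech at 0 by the rule and Klk1 at 0 in every library.

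Immunoglobulin transcripts took up most of the summed UMIs of these cells. They made up 62.3% of the summed UMIs of plasma cell-like cells after live allogeneic infusion, 52.4% after live isogeneic, 55.5% after apoptotic allogeneic and 54.5% after apoptotic isogeneic infusion, and 60.9% after saline. Per cell, the lowest, median and highest shares were 51.4%, 63.3% and 70.3% (live allogeneic), 31.2%, 52.5% and 65.2% (live isogeneic), 26.5%, 59.2% and 68.5% (apoptotic allogeneic), 1.39%, 57.7% and 78.2% (apoptotic isogeneic) and 35.5%, 60.2% and 74.1% (saline). The libraries overlapped throughout, and without the cell of 1.39% the apoptotic isogeneic values began at 26.9%. B-like cells had a median share of 1.31% to 1.65%. The 81 cells thus held between 57.0% (apoptotic isogeneic) and 76.1% (live allogeneic) of all immunoglobulin UMIs in the filtered cells of a library. Their share of a library's Jchain UMIs, 85.8% (saline) to 99.8% (live allogeneic), follows largely from the rule, which chose them on Jchain.

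**Figure D1:**
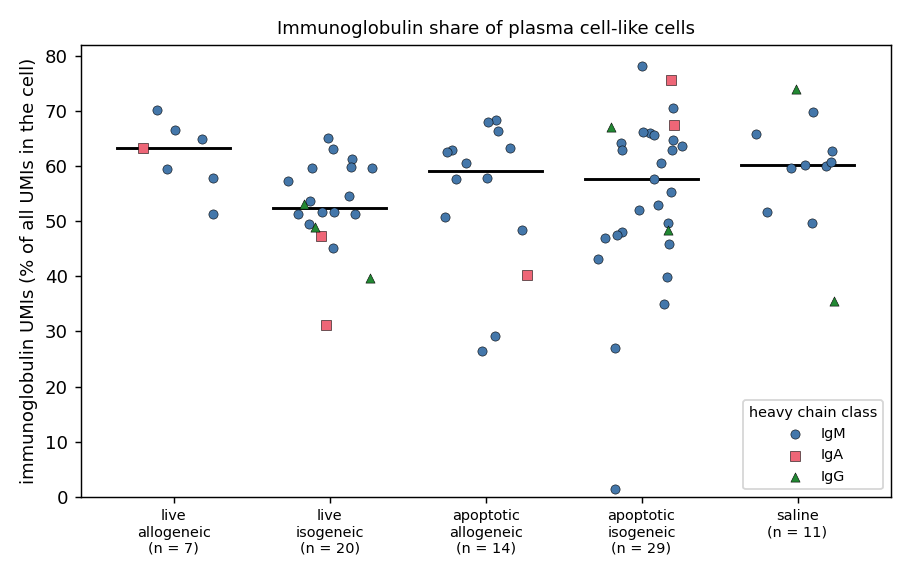
Immunoglobulin share of all UMIs (%) in each plasma cell-like cell, by library, with points coloured by heavy chain class and a line at the library median. The medians lie between 52.5% (live isogeneic) and 63.3% (live allogeneic), the libraries overlap, and 1 apoptotic isogeneic cell stands alone at 1.39%.

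Most plasma cell-like cells carried IgM. The rule asks for Jchain, whose product joins IgM and IgA, so any cells low in Jchain, of whatever class, are not in these shares. A cell was given a class when at least 75% of at least 10 heavy chain constant region UMIs came from 1 gene, and all 81 cells could be classed. Ighm (chr12:113418558-113422730, minus strand, GRCm38), the constant region gene of IgM, gave the class of 68 cells, which is 84.0% (74.1% to 91.2%). By library, the IgM cells were 6 of 7 (live allogeneic), 15 of 20 (live isogeneic), 13 of 14 (apoptotic allogeneic), 25 of 29 (apoptotic isogeneic) and 9 of 11 (saline), or 85.7%, 75%, 92.9%, 86.2% and 81.8% in that order of libraries. Igha (chr12:113254830-113260236, minus strand), the gene of IgA, gave the class of 6 cells, with 1 in each allogeneic library, 2 in each isogeneic library and 0 among the 11 saline cells, with an exact interval that reaches 28.5%. The 7 IgG cells were 1 Ighg1 and 2 Ighg3 cells in the live isogeneic library, 2 Ighg2c cells in the apoptotic isogeneic library and 1 Ighg2b and 1 Ighg2c cell in the saline library. Neither allogeneic library held an IgG cell, at 0 of 7 and 0 of 14, with intervals that reach 41.0% and 23.2%. The IgE class was found in 0 of 81 cells, with an interval that reaches 4.45%.

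The classes were clean within cells. Ighm made up at least 98.4% of the heavy chain UMIs of every IgM cell, with a median of 100%. In the 13 switched cells the leading gene made up 83.3% to 100%, with a median of 99.2%. The lowest of these was cell 2 of the saline library, with 18 heavy chain UMIs (15 of them of Ighg2c) beside 15340 UMIs of Igkc, and with no heavy chain variable gene UMI. Free Ighg2c RNA was low in that library, with 0 UMIs in 290 T-like cells and 16 of 3005 heavy chain UMIs (0.532%) in droplets of 10 to 100 UMIs. Of T-like cells, 52.9% to 78.1% had a UMI of Ighm, at a mean of 0.882 to 2.42 UMIs per cell. Their median depth was 2688 to 5774 UMIs. They had more Ighm (250 to 384 CPM of all UMIs) than Igkc (15.7 to 143) in each of the 5 libraries. In droplets of 10 to 100 UMIs, Igkc (5768 to 6281 CPM of all UMIs) was higher than Ighm (2212 to 5399) in each library with such droplets. How much of the Ighm in T-like cells is free RNA was not tested. The lowest IgM cell had 165 Ighm UMIs, far above the T-like mean.

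**Figure D2:**
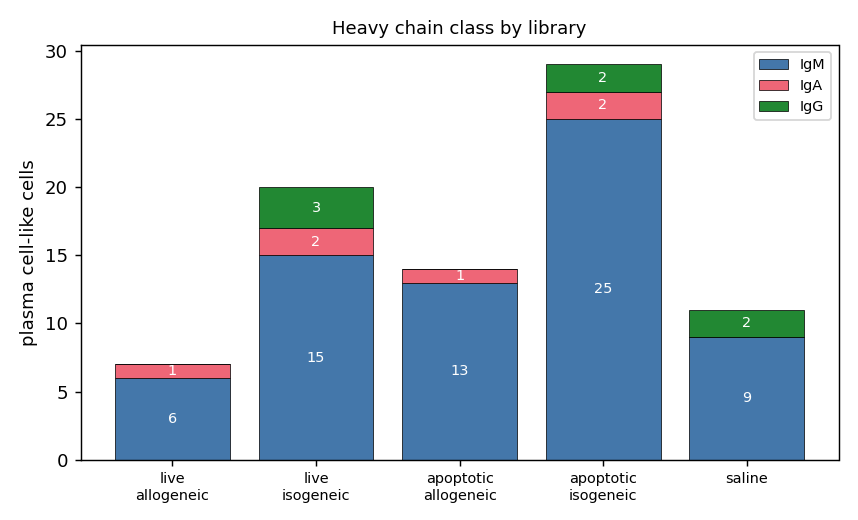
Number of plasma cell-like cells of each heavy chain class (IgM, IgA, IgG) by library, as stacked bars. IgM leads in each library with 6, 15, 13, 25 and 9 cells, and IgA and IgG cells number at most 3 in a library.

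IgM and switched cells overlapped in immunoglobulin share and in Jchain. The share includes the heavy chain UMIs that set the class, and Jchain is a gene of the rule. The immunoglobulin share had a median of 59.6% over 68 IgM cells, 55.4% over 6 IgA cells and 49.0% over 7 IgG cells, with ranges that overlapped (1.39% to 78.2%, 31.2% to 75.6% and 35.5% to 74.1%). Jchain had medians of 709 UMIs in IgA cells, 466 in IgG cells and 607.5 in IgM cells. IgG does not polymerise with the J chain, yet all 7 IgG cells held 152 to 519 Jchain UMIs. The rule's minimum of 10 fixes that every member holds Jchain, but not this level. The switched classes hold too few cells per library, at most 2 IgA and 3 IgG, for a comparison across libraries.

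Kappa light chains were used by 72 cells and lambda by 9, which is 11.1% (5.21% to 20.05%). The lambda cells were 0 of 7 (live allogeneic), 1 of 20 (live isogeneic), 3 of 14 (apoptotic allogeneic), 4 of 29 (apoptotic isogeneic) and 1 of 11 (saline). Among B-like cells of the same libraries, 9.54% to 15.7% had mostly lambda UMIs. All 9 lambda cells were IgM. The lambda constant genes are related copies, Iglc2 and Iglc3 most closely, and are read here as a sum. In 2 live isogeneic cells the constant and variable genes of the light chain went apart. Cell 1 had 6653 lambda and 44 kappa constant UMIs, but 85.3% of its light chain variable UMIs (233) were of Igkv12-46. Cell 6 had 7065 kappa constant UMIs, but 54.7% of its variable UMIs (35) were of Iglv1.

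The cells were diverse in their variable genes. A heavy chain V gene could be named for 73 cells (at least 5 UMIs and 50% of the heavy V UMIs of the cell), with 42 different genes, 23 of them in 1 cell each. A light chain V gene could be named for 79 cells, with 38 different genes. The 73 cells with both held 67 different pairs. Pairs of cells within a library shared both V genes in 6 of 606 cases (0.990%), and pairs of cells from different libraries in 2 of 2022 (0.0989%). All 6 came from 2 sets of 3 IgM cells. In the apoptotic allogeneic library, cells 1, 6 and 13 had Ighv11-2 (chr12:114048241-114048812) with Igkv14-126 (chr6:67896172-67896642), a pair known from B-1 cells that bind phosphatidylcholine. In the apoptotic isogeneic library, cells 2, 3 and 11 had Ighv6-3 (chr12:114391712-114392169) with Igkv5-39 (chr6:69900424-69900977). Both pairs seen across libraries were also IgM: Ighv7-1 with Igkv15-103 in a live allogeneic and an apoptotic isogeneic cell, and Ighv9-3 with Iglv2 in an apoptotic allogeneic and an apoptotic isogeneic cell. The counts hold no junction sequence, so cells with the same V genes are not shown to be of 1 clone. The most used V genes were Igkv1-117 (8 cells in 4 libraries), Ighv6-6 (6 cells in 3 libraries), Iglv2 (6 cells) and Ighv7-1 (5 cells).

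Genes of the secretory pathway were higher in plasma cell-like cells than in the other cell types. The programme was described with 92 genes in 5 lists: the translocon and signal peptidase, ER chaperones and folding enzymes, N-glycosylation, ER-associated degradation and ER-to-Golgi transport. Levels are given as a share of non-immunoglobulin UMIs or as CPM of them, because antibody transcripts would otherwise dilute all other genes, and the genes of the rule were left out. Together the 92 genes made up 7.48% (exact Poisson interval 7.28% to 7.69%) of these UMIs in plasma cell-like cells after live allogeneic infusion and 5.77% (5.65% to 5.89%) after live isogeneic infusion. They made up 5.56% (5.41% to 5.72%) after apoptotic allogeneic, 5.21% (5.09% to 5.32%) after apoptotic isogeneic infusion and 6.32% (6.13% to 6.51%) after saline. They made up 0.746% to 0.801% in B-like cells, 1.42% to 1.71% in pDC-like cells (at least 3 UMIs of Siglech and at most 1 of Cd3) and 0.700% to 0.847% in T-like cells. Every library's plasma cell-like cells lay above every library's cells of the other 3 kinds.

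**Figure D3:**
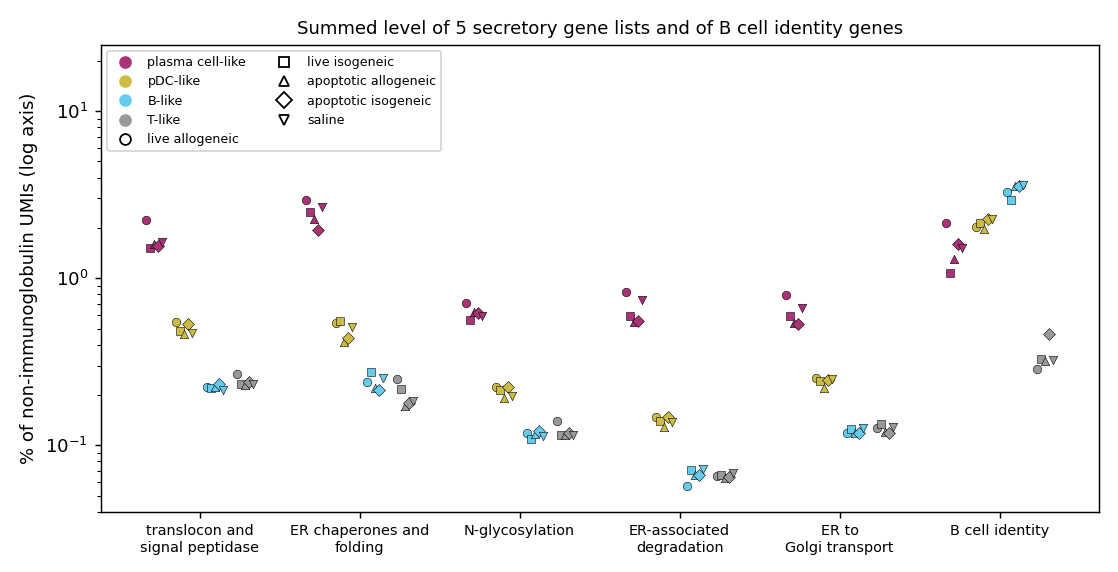
Summed level of each list of genes (% of non-immunoglobulin UMIs, log axis) in plasma cell-like, pDC-like, B-like and T-like cells, with 1 point for each of the 5 libraries. For the 5 secretory lists the plasma cell-like points lie above those of the other cell types, with the pDC-like points next, and for B cell identity genes they lie below the B-like points.

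Of the 92 secretory genes, 71 were at least 2-fold higher in plasma cell-like than in B-like cells in all 5 libraries and 0 were at least 2-fold lower in all 5, where 3.3% of 10975 genes tested were higher and 2.85% lower. The list's median log2 ratio was 2.26 (library medians 2.12 to 2.63, with a pseudocount of 10 CPM), against -0.29 over all genes. Against pDC-like cells, which are themselves secretory, 48 of 92 were higher in all 5 libraries and 1 lower (2.92% and 6.23% of 8342 genes), with a median of 1.46. Against T-like cells, 70 of 91 were higher and 0 lower (4.17% and 4.08% of 10113 genes).

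In the translocon and signal peptidase list, 16 of 19 genes were higher than in B-like cells. Ssr4, a subunit of the translocon-associated complex, averaged 4967 (live allogeneic), 2848 (live isogeneic), 3009 (apoptotic allogeneic), 3479 (apoptotic isogeneic) and 3573 CPM (saline), against 141 to 192 CPM in B-like cells. Sec11c, a signal peptidase subunit, averaged 3432, 2404, 2801, 2355 and 2537 CPM in the same order, against 167 to 213 CPM. Both genes were found in all 81 cells, and live allogeneic cells were highest for both. Sec61b, a subunit of the translocon channel, lay between 1730 and 2925 CPM (B-like cells 285 to 347 CPM), and Spcs2, another signal peptidase subunit, between 1482 and 2462 CPM (B-like cells 142 to 163 CPM).

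Of the ER chaperones and folding enzymes, 20 of 23 were higher than in B-like cells. Hsp90b1 encodes GRP94, the ER form of HSP90. It averaged 5401 (live allogeneic), 5413 (live isogeneic), 4524 (apoptotic allogeneic), 4692 (apoptotic isogeneic) and 7057 CPM (saline) in plasma cell-like cells, against 272 to 375 CPM in B-like and 908 to 1230 CPM in pDC-like cells. Hspa5, which encodes BiP, the chaperone that holds free heavy chains, averaged 2273, 3059, 2431, 1595 and 3618 CPM in the same order, against 322 to 440 CPM in B-like cells. For both, saline cells were highest, but for Hsp90b1 this rank rested on saline cell 2, which held 168 UMIs of it. The protein disulphide isomerase Txndc5 had a different order: 5401 (live allogeneic), 2892 (live isogeneic), 2976 (apoptotic allogeneic), 2041 (apoptotic isogeneic) and 1321 CPM (saline), against 43.4 to 78.9 CPM in B-like cells. It was lowest in saline cells, with Poisson intervals of 1060 to 1628 CPM in saline and 1825 to 2276 CPM in apoptotic isogeneic cells, the next lowest. Calr, the lectin chaperone calreticulin, lay between 1457 and 2087 CPM (B-like cells 307 to 405 CPM).

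Of 14 N-glycosylation genes, 9 were higher than in B-like cells. Among the most abundant genes of the list was Krtcap2, a subunit of oligosaccharyltransferase, at 1131 to 1984 CPM (B-like cells 155 to 222 CPM). The further subunits Dad1 (667 to 991 CPM) and Rpn1 (601 to 807 CPM) followed, with B-like levels of 205 to 277 CPM for Dad1 and 56.7 to 66.5 CPM for Rpn1. Tmem258, also a subunit, was at 405 to 672 CPM (B-like cells 95.2 to 178 CPM). Of 14 genes of ER-associated degradation, which removes misfolded chains, 11 were higher. Edem1, a lectin that selects them, averaged 1549 (live allogeneic), 692 (live isogeneic), 937 (apoptotic allogeneic), 528 (apoptotic isogeneic) and 751 CPM (saline), against 23.4 to 36.8 CPM in B-like cells. Sel1l, the partner of the ubiquitin ligase SYVN1, lay between 512 and 1141 CPM, Herpud1 between 622 and 1231 CPM and Selenos between 578 and 871 CPM. In B-like cells they reached 50.1, 83.5 and 88.7 CPM. Of 22 ER-to-Golgi transport genes, 15 were higher, among them the cargo receptors Tmed10 (1030 to 1665 CPM, against 125 to 152 CPM in B-like cells) and Lman1 (469 to 550 CPM, against 34.7 to 48.6 CPM). Cope, a subunit of the COPI coat, was at 300.3 to 782 CPM (B-like cells 65.1 to 79.5 CPM), and the cargo receptor Tmed9 at 362 to 501 CPM (B-like cells 113 to 123 CPM).

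The promoters of these genes were read for the ER stress element, a motif known to be bound by ATF6 and XBP1 together with NF-Y, spelled as CCAAT and CCACG with 9 bases of any kind between them and searched on both strands from 250 bases before to 50 bases after the start site (RefSeq promoters of GRCm38.p6). It was in 39 of 32851 promoters (0.119%), with each promoter counted on its own. The lists below were counted by gene, and a gene counted once if any of its promoters matched, so these shares differ in unit. Among the secretory genes 75 of 92 had a promoter in that set, and 9 (12%) held the motif: 7 of 20 chaperone and folding genes (Hspa5, Hsp90b1, Calr, Canx, Dnajc3, Creld2 and Pdia6) and 2 of 12 degradation genes (Derl3 and Syvn1), against 0 of 14 translocon, 0 of 11 N-glycosylation, 0 of 18 transport and 0 of 16 B cell identity genes. The shorter motif TGACGTGG, the unfolded protein response element, was in 0.676% of all promoters and in 7 of the 75. A match describes the letters only. The promoters of 4 of the 9 genes are shown because they are those of both leading chaperones and of 2 genes of low level in B-like cells, with the motif in capitals, 5′ to 3′ on the gene's strand: Hspa5 (chr2:34771840-34772139, plus strand), Hsp90b1 (chr10:86705395-86705694, minus strand), and Creld2 (chr15:88819396-88819695, plus strand) and Derl3 (chr10:75893148-75893447, plus strand), the last 2 with the motif in reverse orientation.
Hspa5: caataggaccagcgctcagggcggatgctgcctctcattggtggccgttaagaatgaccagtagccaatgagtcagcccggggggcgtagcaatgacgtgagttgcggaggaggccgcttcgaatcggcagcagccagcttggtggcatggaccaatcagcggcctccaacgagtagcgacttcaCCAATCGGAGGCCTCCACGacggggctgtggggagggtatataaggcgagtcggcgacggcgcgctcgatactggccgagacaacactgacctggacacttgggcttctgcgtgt
Hsp90b1: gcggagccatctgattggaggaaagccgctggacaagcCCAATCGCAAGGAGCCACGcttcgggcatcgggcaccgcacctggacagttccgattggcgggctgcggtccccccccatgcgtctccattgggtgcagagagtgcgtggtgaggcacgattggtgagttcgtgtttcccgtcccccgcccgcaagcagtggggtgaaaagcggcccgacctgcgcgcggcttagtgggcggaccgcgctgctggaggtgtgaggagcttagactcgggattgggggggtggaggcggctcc
Creld2: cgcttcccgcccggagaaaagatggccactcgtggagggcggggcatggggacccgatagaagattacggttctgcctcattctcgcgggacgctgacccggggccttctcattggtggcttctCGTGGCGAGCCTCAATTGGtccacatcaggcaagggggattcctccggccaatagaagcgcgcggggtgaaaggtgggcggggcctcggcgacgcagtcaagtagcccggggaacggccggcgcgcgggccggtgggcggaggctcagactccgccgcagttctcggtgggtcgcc
Derl3: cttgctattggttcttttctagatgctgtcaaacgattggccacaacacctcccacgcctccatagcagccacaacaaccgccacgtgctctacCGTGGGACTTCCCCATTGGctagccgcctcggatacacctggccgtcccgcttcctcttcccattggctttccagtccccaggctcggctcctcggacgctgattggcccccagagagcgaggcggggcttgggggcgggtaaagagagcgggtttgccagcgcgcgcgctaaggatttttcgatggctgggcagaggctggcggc
Creld2, an ER folding factor, averaged 652 to 871 CPM in plasma cell-like cells, against 9.69 to 20.2 CPM in B-like cells.

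The sensors and regulators of the unfolded protein response made up 0.0904% to 0.161% of non-immunoglobulin UMIs in plasma cell-like cells, against 0.0298% to 0.0439% in B-like cells. Of 11 genes tested other than Xbp1, 3 were at least 2-fold higher than in B-like cells in all 5 libraries and 0 lower. Creb3l2, an ER-bound transcription factor that acts in secretory cells, averaged 188 (live allogeneic), 303 (live isogeneic), 240 (apoptotic allogeneic), 138 (apoptotic isogeneic) and 255 CPM (saline), against 2.33 to 7.73 CPM in B-like cells. Atf4, of the PERK arm, lay between 185 and 275 CPM (B-like cells 96.5 to 130 CPM), and Ddit3, the stress factor CHOP, between 30.03 and 86.5 CPM (B-like cells 20.2 to 34.7 CPM), so that neither was 2-fold higher in every library. Atf6, the sensor that is cleaved in the Golgi, lay between 119 and 275 CPM (B-like cells 45.3 to 74.2 CPM).

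Of 11 plasma cell regulators other than Xbp1, 5 were higher than in B-like cells in all 5 libraries and 2 lower. Prdm1 encodes BLIMP1, the repressor that ends the B cell programme. It averaged 159 (live allogeneic), 247 (live isogeneic), 305 (apoptotic allogeneic), 188 (apoptotic isogeneic) and 165 CPM (saline), against 1.67 to 4.05 CPM in B-like cells. Irf4 averaged 116, 476, 316, 283 and 405 CPM in the same order, against 46.9 to 63.8 CPM. Live allogeneic cells were lowest for Irf4, with 8 UMIs in 3 of 7 cells. For Prdm1 they were close to saline cells, at 159 against 165 CPM, and both values rest on few UMIs. The elongation factors Ell2 (264 to 414 CPM) and Eaf2 (375 to 1216 CPM), which with Pou2af1 (420 to 853 CPM) serve antibody transcription in plasma cells, were also higher. B-like cells had at most 29.1 CPM of Ell2, 11.02 CPM of Eaf2 and 257 CPM of Pou2af1. Spib and Aff3, factors of mature B cells, were lower, with 0 to 45.0 CPM and 0 to 21.8 CPM in plasma cell-like cells, against 137 to 268 CPM and 66.5 to 103 CPM in B-like cells. The values of Zbtb20 were 130 to 589 CPM, against 184 to 292 CPM in B-like cells, those of Ikzf1 101 to 142 against 243 to 286 CPM, those of Ikzf3 57.9 to 195 against 194 to 336 CPM, and those of Bhlhe41 15.01 to 55.6 against 11.7 to 19.5 CPM.

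Of 25 B cell identity genes, 19 were at least 2-fold lower than in B-like cells in all 5 libraries and 0 higher, with a median log2 ratio of -2.94. Ms4a1, which encodes CD20, lay between 43.4 and 450 CPM in plasma cell-like cells, against 1352 to 1978 CPM in B-like cells, but it is a gene that B-like cells were chosen on, as is Cd79a. Class II genes, outside the choice of either group, were low as well, with H2-Ab1 at 270 to 678 CPM against 2325 to 2836 CPM and H2-Aa at 86.9 to 490 CPM against 2928 to 3576 CPM. Cd74, the invariant chain that goes with class II, lay closer to B-like cells: it averaged 9745 (live allogeneic), 4857 (live isogeneic), 5810 (apoptotic allogeneic), 6513 (apoptotic isogeneic) and 7792 CPM (saline), against 8521 to 10529 CPM in B-like cells. Only the live allogeneic value lay within the B-like range, and the others lay below it. Of the signalling chains of the B cell receptor, Cd79b was at 420 to 804 CPM against 1356 to 1967 CPM in B-like cells, and Cd79a, which B-like cells were chosen on, at 710 to 1978 CPM. Cd52, a small glycoprotein of lymphocytes, was at 9209 CPM in live allogeneic cells, with 329 UMIs in cell 6 and 5275 CPM without that cell, and at 2778 to 3881 CPM in the other 4 libraries, against 2225 to 3619 CPM in B-like cells.

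Of 26 surface and niche receptors, 9 were higher than in B-like cells in all 5 libraries and 4 lower, among the higher Slamf7 (439 to 811 CPM, against 44.3 to 59.9 CPM), Cd93 (113 to 262 CPM, against 8.56 to 23.4 CPM) and Epcam (62.8 to 204 CPM, against 4.28 to 10.95 CPM). Ly6d, a surface antigen of the B lineage, was at 1795 to 2943 CPM, against 1501 to 2233 CPM in B-like cells. None of 10 survival and death genes passed 2-fold in all 5 libraries in either direction. Mcl1, the survival factor plasma cells depend on, was at 1086 (live allogeneic), 735 (live isogeneic), 610 (apoptotic allogeneic), 578 (apoptotic isogeneic) and 826 CPM (saline), against 417 to 518 CPM in B-like cells. Bcl2, also a survival factor, was at 150.1 to 262 CPM (B-like cells 144 to 209 CPM), and of the death genes Bcl2l11 was at 75.1 to 333 CPM (B-like cells 22.9 to 39.9 CPM) and Bax at 49.4 to 131 CPM (B-like cells 85.4 to 95.3 CPM). Bcl2l1, Bak1, Bbc3, Pmaip1, Bik, Casp12 and Bmf were at 0 to 31.4 CPM. Of 18 amino acid supply and metabolism genes 3 were higher, among them Slc3a2, the heavy chain of amino acid transporters, at 865 to 1839 CPM against 71.2 to 84.4 CPM. Nars, a transfer RNA synthetase, was at 214 to 405 CPM against 61.8 to 89.2 CPM, the transporter Slc38a2 at 207 to 488 CPM against 161 to 215 CPM, and Gapdh at 488 to 1005 CPM against 456 to 719 CPM. Of 23 immediate early and dissociation stress genes, 7 were higher and 1 lower, with Jun at 1788 to 2830 CPM against 126 to 199 CPM in B-like cells. Jund was at 1476 to 2259 CPM against 525 to 667 CPM, Fosb at 948 to 2002 CPM against 66.1 to 149 CPM and Fos at 545 to 2163 CPM against 24.1 to 118 CPM. Spleens were digested with enzymes before sorting, and the part of that step in these values was not tested.

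Few plasma cell-like cells were dividing. None of 24 cell cycle genes passed 2-fold in all 5 libraries against B-like cells, and the list summed to 0.0571% to 0.119% of non-immunoglobulin UMIs in 4 libraries. In the live isogeneic library, the highest of these 4, cell 5 held 70 of 192 UMIs of the list. The apoptotic isogeneic library reached 0.420%, and 0.177% without its cell 12, the cell of low immunoglobulin. There H2afz was at 691 CPM, Hmgb2 at 747 CPM and Tubb5 at 415 CPM, which without cell 12 came to 365, 212 and 248 CPM, against 180.2 CPM, 15.01 CPM and 165 CPM in saline cells. In that library Mki67 had 77 UMIs, of which 30 were in cell 12 and 32 in cell 27. Cell 27 had 65.6% immunoglobulin, 1289 Jchain UMIs and cell cycle genes at 1.23% of its non-immunoglobulin UMIs, so its barcode held both cycling and secretory transcripts. It had 30756 UMIs, the highest of the plasma cell-like cells of its library. Scrublet did not mark it, but did not find doublets reliably.

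The share of the secretory programme overlapped between the libraries. Per cell, its lowest, median and highest shares of non-immunoglobulin UMIs were 5.72%, 7.18% and 9.88% (live allogeneic), 3.55%, 5.24% and 9.11% (live isogeneic), 2.84%, 5.24% and 8.75% (apoptotic allogeneic), 0.867%, 5.54% and 12.5% (apoptotic isogeneic) and 2.34%, 5.87% and 13.4% (saline). All 7 live allogeneic cells lay above the median of every other library but saline, and the lowest of them was the IgA cell. The cell at 13.4% was saline cell 2, the Ighg2c cell with few heavy chain UMIs, which also had the highest chaperone share (7.43%).

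**Figure D4:**
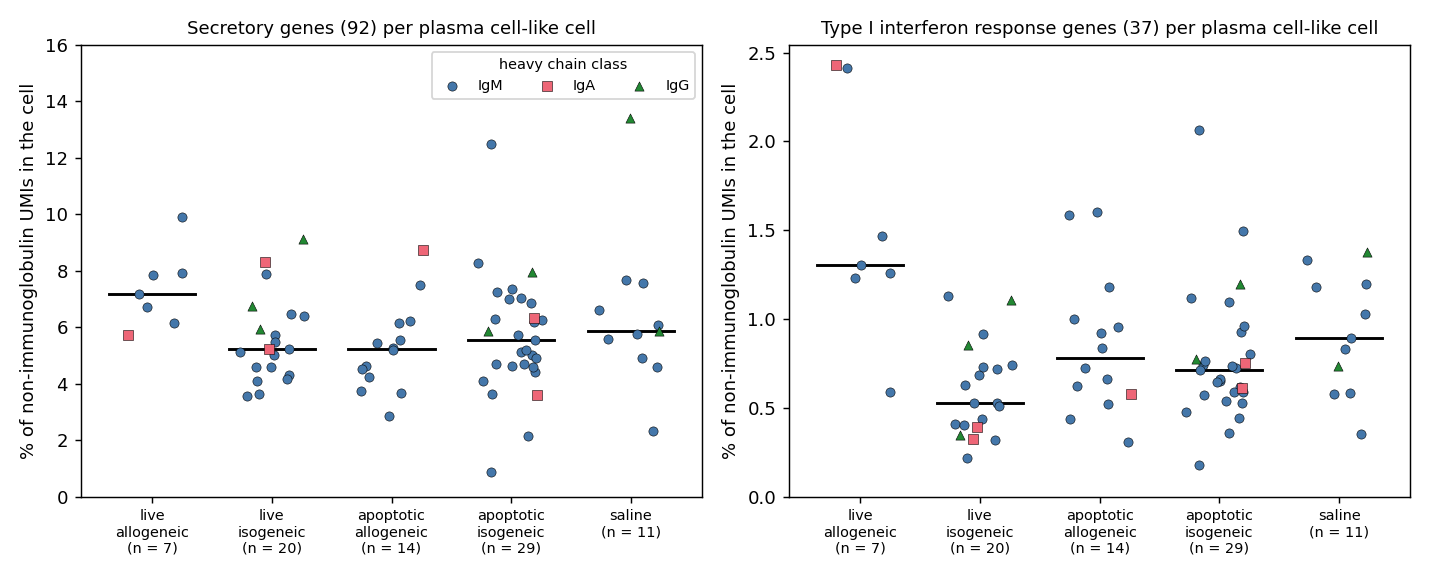
Share of non-immunoglobulin UMIs (%) in each plasma cell-like cell taken by 92 secretory genes (left) and by 37 type I interferon response genes (right), by library, with points coloured by heavy chain class and a line at the library median. The libraries overlap in both, and the medians of the live allogeneic cells, 7.18% and 1.305%, are the highest.

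In the summed cells, the live allogeneic to live isogeneic ratio of the 92 genes was 1.297 (conditional Poisson interval 1.25 to 1.34) and the apoptotic allogeneic to apoptotic isogeneic ratio 1.07 (1.03 to 1.11). Against saline the ratio was 1.18 (1.14 to 1.23) for live allogeneic, 0.913 (0.880 to 0.947) for live isogeneic, 0.880 (0.845 to 0.917) for apoptotic allogeneic and 0.824 (0.794 to 0.855) for apoptotic isogeneic cells. The 4 saline comparisons share the same 11 saline cells. Saline cell 2, with secretory genes at 13.4% of its 5575 non-immunoglobulin UMIs, raised the saline level. The ratios to saline were not recomputed without this cell alone, and their intervals do not cover this dependence on 1 cell. The setting of IgM cells alone leaves it out together with all other switched cells, and its ratios are given with the other settings at the end. Under the 6 other scalings and choices of cells tried, both live allogeneic ratios stayed above 1 and the apoptotic isogeneic ratio to saline stayed below 1. The live allogeneic ratio to live isogeneic cells went down to 1.03 with immunoglobulin UMIs in the total. The apoptotic allogeneic to apoptotic isogeneic ratio turned to 0.942 without apoptotic isogeneic cell 12, and the live isogeneic to saline ratio to 1.01 when Gm42418, AY036118, Lars2 and mitochondrial genes were left out of the total.

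**Figure D5:**
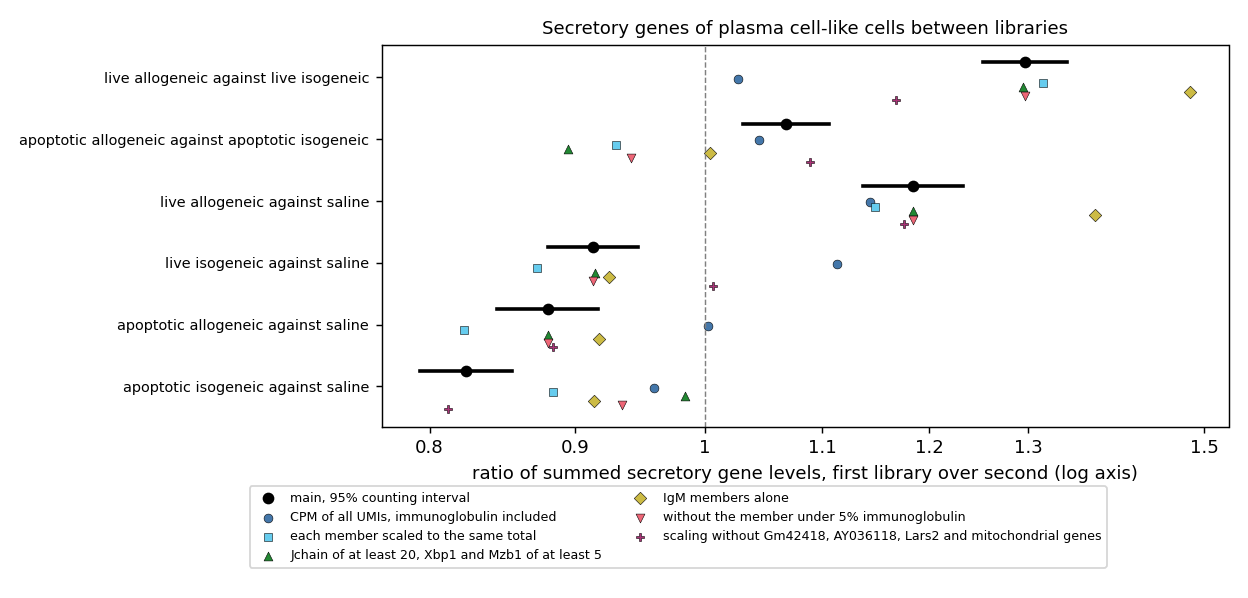
Ratio of the summed level of 92 secretory genes between libraries (log axis), first library over second. Black points with bars give the ratio and its 95% counting interval, and coloured points the ratio under other scalings and choices of cells. The live allogeneic ratios are above 1 throughout, and the ratio between both apoptotic libraries and those of live isogeneic and of apoptotic allogeneic cells against saline lie on both sides of 1.

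Single secretory genes seldom passed 2-fold between libraries. Gene by gene comparisons were limited to libraries with at least 10 plasma cell-like cells, which leaves out the live allogeneic library, and to genes with at least 30 UMIs in both sums together. Of apoptotic allogeneic against apoptotic isogeneic cells, 0 of 76 secretory genes were higher and 1 lower, where 1.74% and 6.95% of 1151 genes were. Of live isogeneic against saline cells, 1 of 76 was higher and 1 lower (4.76% and 6.9% of 1029 genes). Of apoptotic allogeneic against saline cells, 2 of 69 were higher and 5 lower (4.93% and 6.67% of 690 genes), and of apoptotic isogeneic against saline cells 0 of 76 were higher and 5 lower (6.99% and 4.04% of 1088 genes). The secretory list's median log2 ratio was -0.01, -0.07, -0.17 and -0.27 in these 4 comparisons, against -0.10, -0.16, -0.08 and -0.01 over all genes with at least 20 UMIs. The balance of all genes past 2-fold depended on the scaling: with immunoglobulin UMIs in the total it was 100 higher to 28 lower in place of 49 to 71 for live isogeneic against saline, 50 to 26 in place of 34 to 46 for apoptotic allogeneic against saline, and 119 to 25 in place of 76 to 44 for apoptotic isogeneic against saline. Without Gm42418, AY036118, Lars2 and mitochondrial genes in the total the live isogeneic balance was 61 to 48. The apoptotic isogeneic balance also rested on cell 12, without which it was 39 higher to 36 lower of 961 genes (4.06% and 3.75%). Without that cell 13 genes were higher and 53 lower of 1019 between apoptotic allogeneic and apoptotic isogeneic cells, in place of 20 and 80. The secretory counts of both comparisons were the same without it, except that 75 genes in place of 76 were tested between both apoptotic libraries.

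Type I interferon response genes were highest in the live allogeneic cells. The list made up 1.46% (1.37% to 1.55%) of non-immunoglobulin UMIs there, 0.584% in live isogeneic, 0.773% in apoptotic allogeneic, 0.730% in apoptotic isogeneic (0.819% without its cell 12) and 0.869% in saline cells. The live allogeneic level was 2.49-fold (2.28 to 2.73) that of live isogeneic and 1.68-fold (1.51 to 1.86) that of saline cells. Per cell, the lowest, median and highest shares were 0.590%, 1.305% and 2.43% in live allogeneic, 0.217%, 0.529% and 1.13% in live isogeneic and 0.353%, 0.893% and 1.38% in saline cells, so that the libraries overlapped, and 6 of 7 live allogeneic cells lay above the live isogeneic maximum. The same library was highest among B-like cells (0.934%, against 0.501% to 0.604% in the other 4 libraries) and T-like cells (0.757%, against 0.369% to 0.454%). It was also highest among pDC-like cells (1.54%, against 0.999% to 1.17%).

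Among the most abundant genes of the list, Ly6a, which encodes the surface antigen Sca-1, averaged 5560 (live allogeneic), 1662 (live isogeneic), 1417 (apoptotic allogeneic), 2619 (apoptotic isogeneic) and 3423 CPM (saline) and had at least 21 UMIs in each of the 7 live allogeneic cells. Ifi27l2a, an interferon-induced gene, averaged 3475, 748, 861, 823 and 751 CPM in the same order, and 2223 CPM in live allogeneic cells without cell 5, which held 104 of 240 UMIs. In B-like cells Ifi27l2a was at 1650 CPM in the live allogeneic library and at 604 to 742 CPM in the other 4, and in T-like cells at 2095 CPM and at 517 to 647 CPM. Bst2, the antiviral factor tetherin, was at 695 CPM in live allogeneic, 377 in live isogeneic, 142 in apoptotic allogeneic, 138 in apoptotic isogeneic and 105 CPM in saline cells, and Zbp1, a nucleic acid sensor, at 362, 179, 153, 107 and 135 CPM. Ly6e did not follow, at 2780 CPM in live allogeneic and 3445 CPM in apoptotic allogeneic cells. The part of free RNA in these values was not tested.

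Ly6c2, a surface antigen of inflammatory monocytes and of some plasma cells, was also highest in live allogeneic cells. It averaged 8109 (7451 to 8809) CPM in live allogeneic, 1378 in live isogeneic, 850 in apoptotic allogeneic, 1457 in apoptotic isogeneic and 766 CPM in saline cells. Per cell, its lowest, median and highest counts were 0, 49 and 210 UMIs (live allogeneic), 0, 2.5 and 71 (live isogeneic), 0, 3.5 and 21 (apoptotic allogeneic), 0, 3 and 53 (apoptotic isogeneic) and 0, 1 and 18 (saline). It was found in 6 of the 7 live allogeneic cells, in which all 6 other monocyte and macrophage markers were at 0. In B-like cells it was at 73.5 CPM in the live allogeneic library and at 20.4 to 45.7 CPM in the other 4. The gene lies at chr15:75108158-75111970 beside a closely related copy, Ly6c1, so that its count is uncertain.

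The genes furthest apart between libraries with at least 10 cells often rested on few cells. Of apoptotic allogeneic against apoptotic isogeneic cells, Pycard, an inflammasome adaptor, was 4.48-fold higher (2.59 to 8.05), but 41 of its 49 apoptotic allogeneic UMIs were in cell 3, the IgA cell, and without it the ratio was 0.817. Ly6k (3.71-fold), P2rx4 (3.33-fold), Sms (3.099-fold, and 1.25-fold without cell 3) and Bri3 (2.60-fold) were also higher. Mki67, Hmgb2, Pdap1, Pold4 and Tuba1b were lower, Mki67 with 3 against 77 and Hmgb2 with 10 against 119 UMIs. Of the 77 Mki67 UMIs, 30 were in apoptotic isogeneic cell 12 and 32 in cell 27. Cell 12 also held 90 of the 119 Hmgb2 UMIs. Without that cell the ratio was 0.515 for Hmgb2 and 0.448 for Pold4, and Tuba1b turned to 1.07. Of live isogeneic against saline cells, Slpi, a secreted protease inhibitor, was 5.82-fold higher with 1167 of 1245 UMIs in cell 12, without which the ratio was 0.390. Apoe was lower with 108 of 111 saline UMIs in saline cell 8, and both sums were at 3 UMIs without it. Spread more evenly were Metap2 and Klf2, which were 7.41-fold (1.91 to 63.5) and 7.20-fold (1.85 to 61.8) higher in live isogeneic cells, with UMIs in 15 and 12 of 20 cells against 1 and 2 of 11. Prg2, known as an eosinophil granule protein, was at 803 CPM in live isogeneic and 3543 CPM in saline cells, in 15 of 20 and 10 of 11 cells. Fchsd2, Btg1 and Gpx1 were also lower in live isogeneic cells, at ratios of 0.143, 0.156 and 0.235, with Btg1 at 0.289 without saline cell 9, and Gm42418 and Lars2 were higher, at 4.97 and 4.41.

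Of apoptotic allogeneic against saline cells, the survival receptor Tnfrsf17 was 3.48-fold higher (1.98 to 6.55), with UMIs in 12 of 14 and 7 of 11 cells. Tceal9 (3.11-fold), Ndufa1 (2.71-fold) and Evi2a (2.63-fold) were also higher, and Btg1, Cd69, Ash1l and Ppp1r15a lower. Pycard (4.45-fold) and Apoe (0.105) rested on single cells and turned to 0.812 without apoptotic allogeneic cell 3 and to 3.56 without saline cell 8. Cd69 was at 76.3 CPM in apoptotic allogeneic and 510.5 CPM in saline cells, or 188 CPM without saline cell 4. Ppp1r15a, which restores translation after stress, was at 131 CPM in apoptotic allogeneic and 465 CPM in saline cells, or 290.02 CPM without saline cell 4. Of apoptotic isogeneic against saline cells, Mif was 4.94-fold higher (2.00 to 15.8), in 22 of 29 and 4 of 11 cells. Mki67 was 6.44-fold higher (2.64 to 20.4), but of its 77 UMIs 30 were in cell 12 and 32 in cell 27. It was 4.57-fold higher without cell 12 and 4.03-fold without cell 27, and was not recomputed without both. Pold4 was 4.601-fold higher (1.44 to 23.4) but 1.62-fold without cell 12. Csnk2b had 29 UMIs against 1, and Hmgb2 had 119 UMIs against 1, or 29 without cell 12. Kctd12, Tacc1 and Rnf187 were lower, at ratios of 0.201, 0.209 and 0.264, and Kctd12 was at 0.368 without saline cell 4 and Tacc1 at 0.350 without saline cell 8. Apoe was lower at 0.0377, but 1.28 without saline cell 8. Golgb1, the Golgi tether giantin, was at 226 CPM in apoptotic isogeneic and 841 CPM in saline cells, a ratio of 0.269 (0.172 to 0.416), with UMIs in 18 of 29 and 11 of 11 cells. It was at 188 CPM in live allogeneic, 266 CPM in live isogeneic and 262 CPM in apoptotic allogeneic cells, so that saline stood above all 4, with 24 of its 56 saline UMIs in cell 4 and 546 CPM without that cell.

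Cells of 1 library also varied beyond sampling. Over 2407 genes the variance within libraries was at a median 1.15 times the Poisson expectation. It was highest for Slpi (706 times), of which 1 cell held most UMIs, followed by Malat1 (83.5), Apoe (77.7), Ly6c2 (49.1), Cd52 (41.4) and Gm42418 (39.1). The chromatin genes Hmgb2 (36.3), Hist1h1b (33.7) and Hist1h3c (21.2), the replication gene Pclaf (19.5) and Actb (32.9) had their highest count in apoptotic isogeneic cell 12. Without that cell Malat1 was at 48.3 times, below Apoe at 78.8. Of the secretory genes, Hsp90b1 (26.9 times) was the most variable, with 168 UMIs in saline cell 2. E330020D12Rik (25.3), Mzb1 (19.8) and Ifi27l2a (19.1) completed the first 15.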

How the data were processed

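UMI counts per gene and barcode are as deposited by the authors, from 10x libraries processed with Cell Ranger 4.0 on mm10, per the submitters' processing notes. The number of mice per library and any cell filter before deposit are not given in the sources used here. Counts were read with Python 3.11.15, pandas 2.3.3 and scanpy 1.11.5, and cells were filtered and chosen by the limits the report opens with. Counts were summed over the chosen cells of a library and scaled to their non-immunoglobulin UMIs, and log2 ratios used a pseudocount of 10 CPM. Genes with at least 30 UMIs in both sums together and libraries with at least 10 such cells entered gene comparisons, with 2-fold as the rule of size. Exact Poisson, conditional Poisson and Clopper-Pearson intervals (95%, scipy 1.17.1) cover counting error only. Named genes were the 4 with the most UMIs per list, all of a list of up to 12, the 15 most variable, and the 5 of highest and lowest log2 ratio per library pair with a UMI in at least 20% of cells of 1 library. Others (Fkbp11, Derl3, Creld2, Cd93, Epcam, Ddit3, Zbp1, Ms4a1 and class II genes) were chosen after their values were seen. A gene of the survival list is not reported here. Of the list genes, 2 were not in the feature tables. Scripts were tested on simulated data. The members and lists were chosen with earlier results of these data known. Planned tests of IgA and of IgG against IgM cells were not run, because no library had 5 cells of a switched class.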

Additional observations from a re-analysis of the deposited data

Results flagged for a closer look

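Both signals below come from droplets of 10 to 100 UMIs, which the comparisons do not use and which hold mostly free RNA. In the live isogeneic library Ighg2b made up 6.38% (6.10% to 6.66%) of the heavy chain UMIs of such droplets, 1867 of 29277, against 0.536% (11 of 2051) in the live allogeneic, 0.125% (5 of 3994) in the apoptotic isogeneic and 0.166% (5 of 3005) in the saline library, while no live isogeneic plasma cell-like cell was of the Ighg2b class. In the apoptotic isogeneic library Ighg1 made up 17.8% (16.6% to 18.97%), 709 of 3994, against 0 of 2051 in the live allogeneic library, 1.05% (308 of 29277) in the live isogeneic library and 0 of 3005 in the saline library, with an exact interval that reaches 0.123%, and no apoptotic isogeneic plasma cell-like cell was of the Ighg1 class. The apoptotic allogeneic counts hold no such droplets. Cells that missed a limit of the rule were not classed. Among them was a live isogeneic cell with 1 Mzb1, 141 Jchain, 2621 Igkc and 2 Ighm UMIs.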

How the results depend on the processing

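Of 130 values recomputed under other settings for the counts of cells, the IgM shares, the secretory ratios and the counts of genes past 2-fold, 103 kept their direction and size, 21 moved and 6 reversed. The counts and IgM shares of plasma cell-like cells were among those that kept. With immunoglobulin UMIs in the total, the summed secretory ratio was 1.03 for live allogeneic against live isogeneic cells, and against saline it was 1.11 for live isogeneic (reversed), 1.0026 for apoptotic allogeneic (reversed) and 0.959 for apoptotic isogeneic cells. With each cell scaled to the same total it was 0.930 (reversed) for apoptotic allogeneic against apoptotic isogeneic cells, and against saline 0.873 (live isogeneic), 0.823 (apoptotic allogeneic) and 0.884 (apoptotic isogeneic). With limits of 20 Jchain, 5 Xbp1 and 5 Mzb1 UMIs it was 0.895 (reversed) for apoptotic allogeneic against apoptotic isogeneic and 0.984 for apoptotic isogeneic against saline cells, and genes past 2-fold numbered 52 in place of 100 and 69 in place of 120. With IgM cells alone it was 1.48 for live allogeneic against live isogeneic and 1.0041 for apoptotic allogeneic against apoptotic isogeneic cells, and against saline 1.37 (live allogeneic), 0.918 (apoptotic allogeneic) and 0.914 (apoptotic isogeneic). At 100 or more UMIs per gene, genes past 2-fold numbered 7 for apoptotic allogeneic against apoptotic isogeneic cells, 16 in place of 120 for live isogeneic, 14 in place of 80 for apoptotic allogeneic and 12 for apoptotic isogeneic cells against saline. The settings that follow, and those in the report that leave out the cell of most UMIs, were chosen after seeing the data. Without the apoptotic isogeneic cell under 5% immunoglobulin, the ratio was 0.942 (reversed) against apoptotic isogeneic cells for apoptotic allogeneic ones and 0.935 for apoptotic isogeneic against saline cells, with 66 and 75 genes past 2-fold. Without Gm42418, AY036118, Lars2 and mitochondrial genes in the total it was 1.17 for live allogeneic against live isogeneic and 1.0067 (reversed) for live isogeneic against saline cells. The cause was not tested. Of 42 list medians recomputed, 25 kept and 17 moved.

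No paired analysis was possible because each group is 1 library and no test between groups was made, and for the same reason no replicate could be left out. Tests of IgA and of IgG against IgM cells were not run, nor any other setting of them. With 7 live allogeneic and 11 saline cells, a few cells decide many single-gene values.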
